A study of Mus musculus with 126 samples.

Results

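The 8 genes described here, Srebf2, Insig1, Hmgcs1, Idi1, Fdps, Fdft1, Sqle and Lss, belong to the pathway by which mouse cells make cholesterol and sense how much of it they hold. They were chosen by name, as rows of a table of read counts for 23420 genes, and all 8 passed the filter on low counts that left 15822 genes to test. The RNA came from J1 mouse embryonic stem cells, a line kept pluripotent in serum medium with leukaemia inhibitory factor on gelatin. Wild-type (WT) cells were compared with a line that lacks the 3 DNA methyltransferases Dnmt1, Dnmt3a and Dnmt3b (TKO), and whether that line is 1 clone is not given in the sources used here. Each genotype was kept for 36 h either with 5 ng/µl Trichostatin A (TSA), an inhibitor of histone deacetylases, or with its solvent, 0.0033% DMSO. This gave 4 groups (WT DMSO, WT TSA, TKO DMSO and TKO TSA) of 2 RNA-seq libraries each, 8 libraries in all. The series' other 118 samples, of chromatin and genomic DNA, were not analysed here.

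Cholesterol is built from acetyl-CoA through mevalonate, the isoprenoid diphosphates, squalene and lanosterol, and cells also take it up from lipoproteins. SREBP2, the product of Srebf2, is a transcription factor held in the endoplasmic reticulum membrane as a precursor. When membrane sterol is low its partner SCAP carries it to the Golgi, where proteases free the part that enters the nucleus and activates the genes of the synthesis enzymes and Insig1, and when sterol is high the INSIG proteins hold SCAP back. The messenger RNAs measured here report neither the cleavage of SREBP2 nor the sterol content of the cells.

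Promoter windows of 300 bases, from 250 before to 50 after the annotated start of transcription, were held by RefSeq on build GRCm38.p6 (the assembly also called mm10) for 5 of the 8 genes: Srebf2, Insig1, Hmgcs1, Idi1 and Lss. Sqle, Fdps and Fdft1 had no entry. Of the 8 genes, Lss fell most under TSA in both genotypes. Hmgcs1 fell under TSA in WT cells and was lower in TKO than in WT cells in DMSO. Insig1 was the 1 gene of the 8 called higher under TSA in TKO cells. The windows of these 3 genes, on which the results turn, are printed below. Each reads 5′ to 3′ on the plus strand, which is the strand of all 3 genes, and capitals mark the sterol regulatory element TCACNCCAC and the CCAAT box CCAAT on either strand (the latter reads ATTGG on the reverse strand).

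Lss promoter, chr10:76531355-76531654: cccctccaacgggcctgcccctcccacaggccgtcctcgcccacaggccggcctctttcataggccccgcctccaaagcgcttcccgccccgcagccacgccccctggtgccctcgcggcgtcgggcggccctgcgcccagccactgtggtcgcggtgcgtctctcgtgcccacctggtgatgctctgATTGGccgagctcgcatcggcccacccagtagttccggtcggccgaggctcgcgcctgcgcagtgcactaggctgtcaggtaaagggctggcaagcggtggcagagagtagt

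Hmgcs1 promoter, chr13:119690101-119690400: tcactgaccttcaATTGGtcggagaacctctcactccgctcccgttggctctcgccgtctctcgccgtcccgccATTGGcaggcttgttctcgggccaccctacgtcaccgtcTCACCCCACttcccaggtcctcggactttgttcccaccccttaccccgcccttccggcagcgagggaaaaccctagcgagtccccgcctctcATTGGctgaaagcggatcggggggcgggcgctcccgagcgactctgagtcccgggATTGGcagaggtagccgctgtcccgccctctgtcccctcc

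Insig1 promoter, chr5:28071162-28071461: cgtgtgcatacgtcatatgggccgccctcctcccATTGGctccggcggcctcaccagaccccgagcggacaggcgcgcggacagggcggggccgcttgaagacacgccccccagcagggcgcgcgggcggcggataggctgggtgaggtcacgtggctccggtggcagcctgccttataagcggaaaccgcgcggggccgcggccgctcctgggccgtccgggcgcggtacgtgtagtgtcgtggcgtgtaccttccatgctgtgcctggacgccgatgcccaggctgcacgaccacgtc

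The exact sterol regulatory element was found in 1 of the 5 windows, that of Hmgcs1, where its first base lies at position -137 from the start of transcription. It is held by 402 of 32544 distinct promoter windows of this length, which is 1.24%. The CCAAT box, the site of the factor NF-Y, was found in all 5 windows and in 37.4% of all windows, at 4 places in Hmgcs1, at 2 in Idi1 and at 1 place each in Srebf2, Insig1 and Lss. The GC box GGGCGG, read by Sp-family factors, was likewise in all 5 windows and in 35.9% of all windows. The E-box CACGTG was in 1 of the 5, the Insig1 window at position -101, against 7.17% of all windows. The motifs CCGGAAGT of GABPA, AAGATGGC of YY1 and GCGCATGC of NRF1 were in none of the 5, against 3.92%, 2.77% and 2.73% of all windows. Both strands were searched, none of these letter strings contains another, and a match or its lack describes only the letters of the window. The windows held 52.3% (Idi1) to 71.7% (Insig1) G or C, with 9 to 38 CpG dinucleotides, against medians of 53% and 7 over all windows. The start site of the Hmgcs1 window lies 111 bases upstream of the first exon base that the count table gives for the gene, and that of the Lss window 22 bases upstream, while the other 3 coincide.

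The libraries held 13280631 to 15542527 counted reads. Levels below are CPM, counts scaled to 1000000 reads, after adjustment by the trimmed mean of M-values (TMM), and at these depths 3 counts correspond to 0.183 to 0.243 CPM. Differences are log2 fold changes from edgeR's quasi-likelihood test over all 8 libraries, with p-values adjusted by Benjamini-Hochberg over the 15822 genes, and a call below means an adjusted p under 0.05. The summed level of the 3 targeted genes was 866.2 to 1253 CPM in the WT libraries and 196.3 to 243.4 CPM in the TKO libraries, and each of the 3 was called lower in TKO cells. TSA moved a large share of all genes: 4266 were called higher and 4092 lower in WT cells, a split that became 5812 against 2433 when only library totals were used for scaling, which raised the median of all genes by 0.20 on the log2 scale (0.15 in TKO cells). In TKO cells the split was 4872 against 4412, or 5908 against 3267 with library totals. Summed embryonic stem cell markers, 10 genes such as Pou5f1 and Nanog, stood at 3660 to 4010 CPM in WT DMSO, 2138 to 2327 in WT TSA, 4488 to 4835 in TKO DMSO and 2140 to 2414 in TKO TSA, with none at 0; TSA called 8 of the 10 lower in WT cells and 7 in TKO cells. Summed fibroblast and mesenchymal markers, 10 genes, stood at 501.5 to 820.4, 471.2 to 706.5, 247.3 to 327.5 and 240.7 to 284.8 CPM in the same order, with Twist2 at 0 in both TKO DMSO libraries; TSA called 4 of the 10 higher and 3 lower in WT cells and 7 higher and 0 lower in TKO cells, with medians of 0.30 and 1.89. Further, 6 mesoderm and trophoblast markers summed to 478 to 744.1, 1082 to 1214, 56.38 to 80.27 and 105.5 to 157.9 CPM. Most of that sum came from Krt8 and Krt18, with means of 290.7 and 299.1 CPM in WT DMSO and 464 and 651.1 in WT TSA. TSA called 3 of the 6 higher and 1 lower in WT cells and 3 higher and 0 lower in TKO cells. In the order WT DMSO, WT TSA, TKO DMSO and TKO TSA, 5 neural markers summed to 320.1 to 405.1, 135.7 to 170.9, 282 to 310.5 and 132.5 to 143.5 CPM, and 6 endoderm markers to 5.353 to 6.484, 8.062 to 11.21, 16.01 to 18.41 and 27.4 to 31.4 CPM. The part of these marker shifts in the differences below was not tested. In bulk RNA, fewer cells of a type and less RNA per cell cannot be told apart.

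Both regulators were well expressed, and they parted in the TKO cells given TSA. Srebf2, on chromosome 15 (82147269 to 82204960, plus strand, mm10), encodes SREBP2 itself. Its levels in replicates 1 and 2 were 155.4 and 158.2 CPM in WT DMSO, 125.7 and 100.8 in WT TSA, 113.8 and 133.4 for solvent-treated TKO, and 106 and 88.16 for TKO TSA. The solvent-treated WT libraries were the highest of all, and within each genotype both TSA libraries lay below both DMSO libraries. Srebf2 fell under TSA by 0.47 on the log2 scale in WT cells (SE 0.13, edgeR adjusted p = 0.0107) and by 0.35 in TKO cells (SE 0.13, edgeR adjusted p = 0.0379). Between genotypes its log2 difference was -0.34 in DMSO (edgeR adjusted p = 0.0849) and -0.22 in TSA (0.261), neither of which passed. Without WT TSA replicate 2 the change in WT cells was -0.32 (edgeR adjusted p = 0.108). Without TKO TSA replicate 2 the change in TKO cells was -0.22 (0.25), and without TKO DMSO replicate 2 it was -0.24 (0.247). With library totals as the only scaling the changes were -0.27 (0.0948) and -0.20 (0.185), and with upper-quartile scaling they were -0.32 (0.0558) and -0.27 (0.0888), so neither call held under either scaling.

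Insig1, on chromosome 5 (28071412 to 28078662, plus strand), encodes the membrane protein that holds the SCAP and SREBP complex in the endoplasmic reticulum, and it is itself a target of SREBP2. It stood at 153.9 and 189.6 CPM in WT DMSO, 149.5 and 140.7 in WT TSA, 148.8 and 159.4 for solvent-treated TKO, and 217.5 and 236.5 for TKO TSA. The TKO TSA libraries were the 2 highest of the 8, while the other 6 ran from 140.7 to 189.6 CPM and the solvent-treated WT and TKO libraries overlapped. In TKO cells Insig1 rose 1.47-fold under TSA (log2 0.56, SE 0.109, edgeR adjusted p = 0.00122), and among TSA-treated cells it was 1.56-fold higher in TKO than in WT (log2 0.65, SE 0.109, edgeR adjusted p = 0.00269). Both calls held in each of the 14 other settings run, with log2 values from 0.50 to 0.71 and from 0.59 to 0.71. In WT cells the TSA difference was -0.24 (edgeR adjusted p = 0.0826, or 0.0126 at -0.39 without WT DMSO replicate 1) and the genotype difference in DMSO was -0.16 (0.355). The TSA effect in TKO cells exceeded that in WT cells by 0.80 (SE 0.155, 95% interval 0.46 to 1.14, edgeR adjusted p = 0.0364). That difference of effects was positive in all 13 other settings, from 0.65 to 0.96, but its adjusted p was above 0.05 in 6 of them: with upper-quartile scaling (0.0624) and without WT TSA replicate 1 (0.0869), WT TSA replicate 2 (0.0896), TKO DMSO replicate 1 (0.122), TKO DMSO replicate 2 (0.156) or TKO TSA replicate 2 (0.112).

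**Figure D1:**
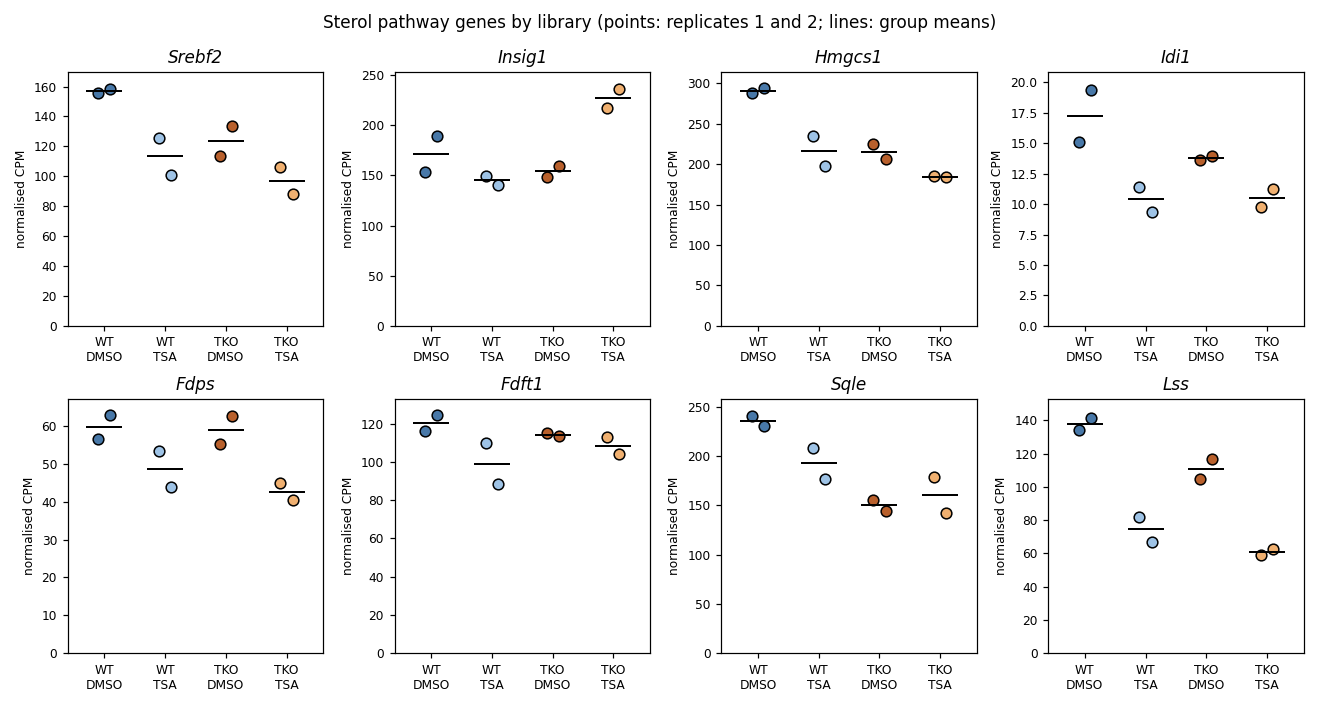
Normalised CPM (vertical axes, each from 0) of the 8 genes in the 4 groups, with a point for each of the 2 libraries and a line at the group mean. Lss drops in both TSA groups and Sqle is lower in TKO DMSO than in WT DMSO, while its WT TSA and TKO TSA pairs overlap. Insig1 is highest in TKO TSA, at 217.5 and 236.5 CPM.

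At the early, mevalonate and isoprenoid steps, TSA lowered Hmgcs1 and Idi1 in WT cells and Fdps in TKO cells, and the other 3 differences of these enzymes under TSA did not pass. Hmgcs1, on chromosome 13 (119690462 to 119708077, plus strand), joins acetoacetyl-CoA and acetyl-CoA to HMG-CoA, an early step toward mevalonate. Its levels were 287.8 and 293.7 CPM in WT DMSO, 235.1 and 197.4 in WT TSA, 224.8 and 206.3 for solvent-treated TKO, and 184.9 and 183.7 for TKO TSA. The solvent-treated WT pair stood apart above all others, the WT TSA and TKO DMSO pairs overlapped, and the TKO TSA pair was lowest. Hmgcs1 fell under TSA in WT cells by 0.43 (SE 0.0996, edgeR adjusted p = 0.00435) and was lower in TKO than in WT cells in DMSO by 0.43 as well (log2 -0.43, SE 0.0997, edgeR adjusted p = 0.0111). Its difference under TSA in TKO cells was -0.23 (edgeR adjusted p = 0.0713, or 0.0385 with only the groups compared and 0.0462 with no filter on low counts) and that between genotypes in TSA also -0.23 (0.132). Without WT TSA replicate 2 the first value was -0.31 (edgeR adjusted p = 0.0636), with library totals -0.22 (0.0651), and without TKO DMSO replicate 2 the genotype difference was -0.37 (0.116).

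Idi1, also on chromosome 13 (8885606 to 8892396, plus strand), interconverts the 2 five-carbon isoprenoid units from which longer chains are built. It was the least abundant of the 8, with 15.06 and 19.37 CPM in WT DMSO, 11.42 and 9.379 in WT TSA, 13.62 and 13.97 for solvent-treated TKO, and 9.743 and 11.24 for TKO TSA. All 4 TSA libraries lay below all 4 DMSO libraries. Idi1 fell by 0.72 under TSA in WT cells (SE 0.18, edgeR adjusted p = 0.00636), a call lost without WT TSA replicate 2 (-0.59, 0.0587), and its difference in TKO cells was -0.39 (SE 0.182, 0.0828).

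Fdps, on the minus strand of chromosome 3 (89093588 to 89101967), makes farnesyl diphosphate, the branch point between sterols, ubiquinone, dolichol and prenylated proteins. Its levels were 56.6 and 62.9 CPM in WT DMSO, 53.5 and 43.9 in WT TSA, 55.29 and 62.73 for solvent-treated TKO, and 45 and 40.5 for TKO TSA. The solvent-treated pairs of both genotypes overlapped, and both TSA pairs lay below them. Fdps fell by 0.47 under TSA in TKO cells (SE 0.127, edgeR adjusted p = 0.00843), and its difference in WT cells was -0.29 (SE 0.126, 0.0699, or 0.0326 at -0.45 without WT TSA replicate 1). The call in TKO cells was lost without TKO DMSO replicate 2 (-0.38, edgeR adjusted p = 0.074) and without TKO TSA replicate 2 (-0.39, 0.0656).

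At the squalene and lanosterol steps, Lss fell under TSA in both genotypes, Sqle was lower in TKO than in WT cells in DMSO, and no difference of Fdft1 was called. Fdft1, on the minus strand of chromosome 14 (63145150 to 63177793), is squalene synthase, the first enzyme committed to sterols. It showed 116.4 and 124.7 CPM in WT DMSO, 109.7 and 88.55 in WT TSA, 115.2 and 113.4 for solvent-treated TKO, and 113.2 and 103.9 for TKO TSA. Apart from WT TSA replicate 2, at 88.55, the libraries ran from 103.9 to 124.7 CPM. The largest difference was -0.28 with TSA in WT cells (SE 0.111, edgeR adjusted p = 0.0518, or 0.0145 at -0.45 without WT TSA replicate 1 and 0.0475 with no filter on low counts). Of its exon bases, 27% are shared with Ctsb, a lysosomal protease gene on the opposite strand. Ctsb had means of 139.7, 237.7, 140.8 and 263.2 CPM in WT DMSO, WT TSA, TKO DMSO and TKO TSA and rose under TSA by log2 0.77 and 0.90 (edgeR adjusted p = 0.000602 and 0.000144). Whether the counting used strand is not given in the sources used here, so reads of the shared bases may not be assigned to 1 gene with certainty.

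Sqle, on chromosome 15 (59315092 to 59331193, plus strand), is squalene monooxygenase, an oxygen-dependent step late in the pathway. Its levels were 240.5 and 230.6 CPM in WT DMSO, 208.2 and 177.1 in WT TSA, 155.5 and 144.4 for solvent-treated TKO, and 179 and 142.2 for TKO TSA. The solvent-treated WT pair was highest and the solvent-treated TKO pair far below it, whereas the TKO TSA pair spanned the TKO DMSO pair. Sqle was 1.57-fold lower in TKO than in WT cells in DMSO (log2 -0.65, SE 0.121, edgeR adjusted p = 0.00355), the largest genotype difference in DMSO among the 8, and this call held in all 14 other settings, from -0.71 to -0.60. Its TSA difference was -0.29 in WT cells (edgeR adjusted p = 0.0615) and 0.10 in TKO cells (0.499), and the difference of those effects was 0.39 (95% interval 0.01 to 0.76, edgeR adjusted p = 0.327). The difference in WT cells passed without WT TSA replicate 1 (edgeR adjusted p = 0.0391), without TKO TSA replicate 1 (0.0334) or 2 (0.0335) and with no filter on low counts (0.0465). Without TKO TSA replicate 1 the value in TKO cells was -0.08.

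Lss, on chromosome 10 (76531627 to 76553934, plus strand), is lanosterol synthase, which closes the sterol rings. It stood at 134.2 and 141.4 CPM in WT DMSO, 81.9 and 66.81 in WT TSA, 104.6 and 116.9 for solvent-treated TKO, and 58.87 and 62.42 for TKO TSA. All 4 TSA libraries lay below all 4 DMSO libraries, and within each treatment the TKO pair lay below the WT pair. Lss fell 1.85-fold under TSA in WT cells (log2 -0.89, SE 0.113, edgeR adjusted p = 0.000114) and 1.83-fold in TKO cells (log2 -0.87, SE 0.114, edgeR adjusted p = 8.84e-05). The difference between these effects was 0.02 (95% interval -0.33 to 0.37). Both calls held in each of the 14 other settings, from -1.05 to -0.69 and from -0.95 to -0.72. The genotype differences of -0.32 in DMSO (edgeR adjusted p = 0.0697) and -0.29 in TSA (0.098) did not pass, the latter with 0.0463 at -0.43 without WT TSA replicate 2. The locus 4930483K19Rik shares 6.06% of the exon bases of Lss on the opposite strand and had a mean of 0.04 CPM or less in each group.

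**Figure D2:**
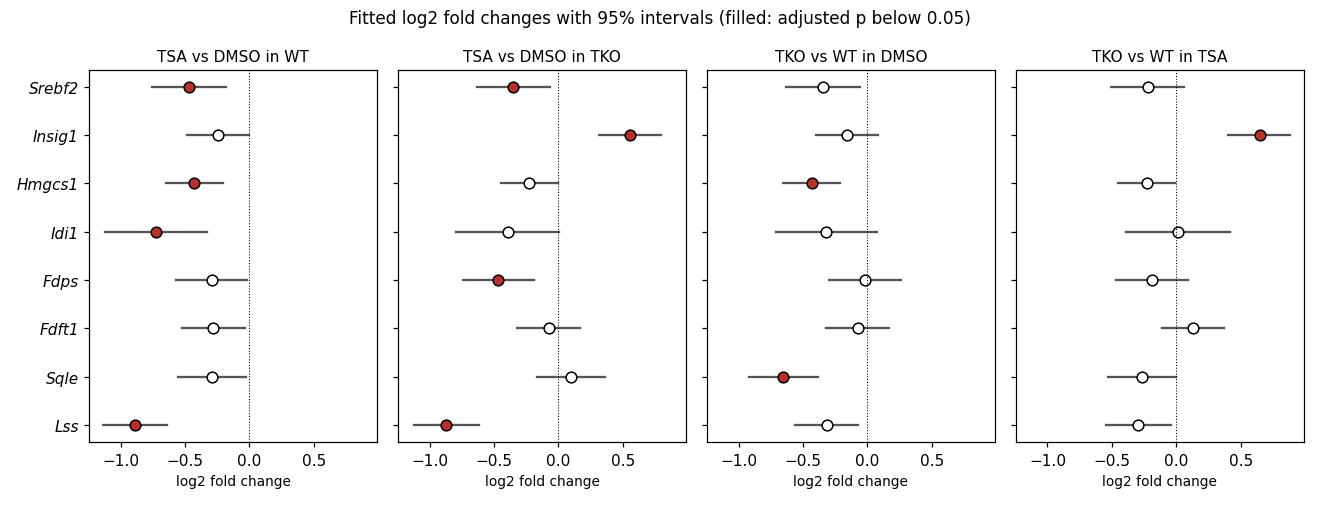
Log2 fold changes (horizontal axis) of the 8 genes in 4 comparisons, with lines for the 95% intervals and filled points where the edgeR adjusted p is below 0.05. Of the points for TSA in WT cells all lie left of 0, and Insig1 lies right of 0 in both comparisons that involve TKO TSA.

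Counted over the 8 genes, TSA in WT cells lowered Srebf2, Hmgcs1, Idi1 and Lss and raised none, so 4 of 8 were called, against 52.8% of all genes tested (25.9% lower, 27% higher). Their median log2 change was -0.36, against 0.01 over all genes tested. The remaining 4, Insig1, Fdps, Fdft1 and Sqle, had values from -0.29 to -0.24. For all 8 both TSA libraries lay below both DMSO libraries, as they did for 37.4% of all genes (the reverse held for 39.6%). The count of 4 depended on the WT TSA libraries, falling without replicate 2 and rising without replicate 1. Over all genes, fewer were called when either of these libraries was left out. Without replicate 2 the values of Hmgcs1, Idi1 and Srebf2 were -0.31, -0.59 and -0.32. Without replicate 1 those of Fdps, Fdft1 and Sqle were -0.45, -0.45 and -0.42. With library totals the count was 2 (Idi1 and Lss), against 8245 of all 15822 genes called. With no filter on low counts it was 6, against 8471 of 20430.

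In TKO cells TSA lowered Srebf2, Fdps and Lss and raised Insig1, again 4 of 8 called, against 58.7% of all genes (27.9% lower, 30.8% higher). The median over the 8 was -0.29, against 0.04 over all genes. Hmgcs1, Idi1, Fdft1 and Sqle had values of -0.23, -0.39, -0.08 and 0.10. The libraries did not overlap for 7 of the 8, with 6 lower and 1 higher, and for all genes the shares were 39.5% and 42.5%. Without replicate 2 of TKO DMSO or of TKO TSA fewer of the 8 were called, and fewer of all genes too. Fdps then had -0.38 and -0.39, and Srebf2 -0.24 and -0.22. Of the difference between the TSA effects of the 2 genotypes, 1 of 8 was called, Insig1, against 1.35% of all genes (0.879% higher, 0.468% lower).

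Loss of the methyltransferases without TSA was accompanied by lower Hmgcs1 and Sqle, 2 of 8 called, against 20.4% of all genes (10.7% lower, 9.63% higher). All 8 log2 values were below 0, from -0.65 for Sqle to -0.02 for Fdps, with a median of -0.32 against -0.01 over all genes. The pairs did not overlap for 6 of the 8, all of them lower, against 30.5% of all genes lower and 29.4% higher. The sign of Fdps turned with library totals as the only scaling (0.00462), and that of Insig1 without WT DMSO replicate 2 (0.0013). In TSA-treated cells 1 of 8 was called between genotypes, Insig1, higher in TKO, against 18.4% of all genes (10% higher, 8.38% lower), and the median was -0.21. The count was 2 without WT TSA replicate 2, which added Lss, and without TKO TSA replicate 1, which added Sqle, both lower. There the pairs did not overlap for Insig1 (higher, as for 31.8% of all genes) and for Hmgcs1 and Lss (lower, as for 31.1%).

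Against solvent-treated WT cells, the TKO TSA cells had 7 of 8 called, against 61.9% of all genes (30.2% lower, 31.7% higher). Lower were Hmgcs1 by log2 -0.66, Idi1 by -0.71, Fdps by -0.48, Sqle by -0.55, Srebf2 by -0.69 and Lss by -1.18, and higher was Insig1 by 0.40 (edgeR adjusted p = 0.0076). Fdft1 had -0.15 (0.257). The pairs did not overlap for any of the 8, with 7 lower against 39.6% of all genes and 1 higher against 40.6%. This comparison shares its libraries with the others, and its median over the 8 was -0.61, against 0.001 over all genes. The call of Insig1 was lost without WT DMSO replicate 1 (0.25, edgeR adjusted p = 0.0663) and without TKO TSA replicate 2 (0.34, 0.0545), and that of Fdps without TKO TSA replicate 2 (-0.41, 0.052).

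The 6 enzymes summed gave 850.5 and 872.6 CPM in WT DMSO, 699.9 and 583.1 in WT TSA, 669 and 657.8 for solvent-treated TKO, and 590.8 and 544 for TKO TSA. The solvent-treated WT libraries were above the other 6, and the WT TSA pair spanned the TKO DMSO pair. Per kilobase of exon, Insig1 was present at 1.71 to 2.41 times the level of Srebf2 in the 6 libraries outside TKO TSA and at 3.54 and 4.63 times in the TKO TSA libraries. The ratio combines the lower Srebf2 and the higher Insig1 of that group.

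**Figure D3:**
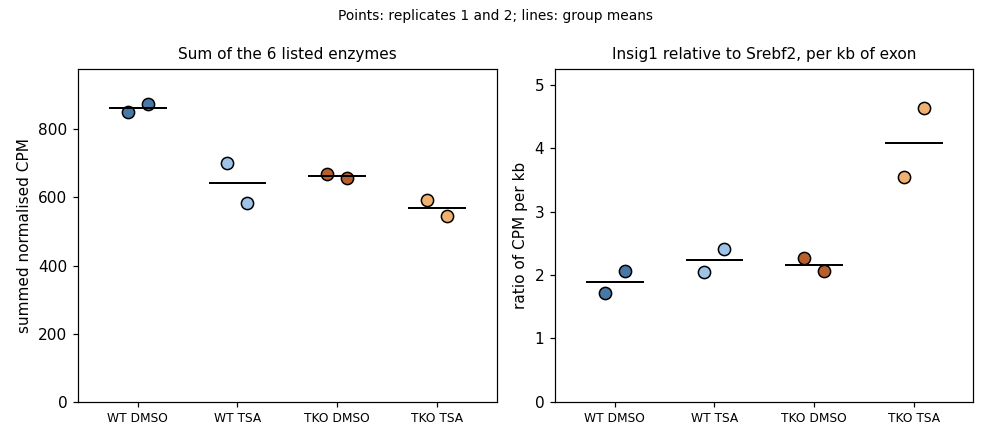
Left, summed normalised CPM of the 6 enzymes in each library; right, the ratio of Insig1 to Srebf2 in CPM per kilobase of exon; lines are group means of 2 libraries. The enzyme sum is highest in WT DMSO, at 850.5 and 872.6 CPM, and the ratio is highest in TKO TSA, at 3.54 and 4.63.

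On the scale of CPM per kilobase of exon, the order of the 8 genes also differed between groups. In WT DMSO it was Hmgcs1 (mean 88.56), Sqle (85.71), Insig1 (64.85), Lss (44.41), Fdft1 (42.1), Fdps (40.9), Srebf2 (34.32) and Idi1 (6.005). There the ranges of Lss and Fdft1 overlapped, as did those of Fdft1 and Fdps, and the other neighbours did not. In TKO DMSO, Insig1 (58.19) and Sqle (54.57) followed Hmgcs1 (65.65) and overlapped each other, as did Fdps (40.39) and Fdft1 (39.94). In WT TSA, Sqle (70.11) and Hmgcs1 (65.87) led and overlapped, Fdft1 (34.62) and Fdps (33.34) overlapped, and Lss (23.97) had moved down beside Srebf2 (24.78), which it also overlapped. In TKO TSA, Insig1 (85.73) led without overlap, Sqle (58.45) and Hmgcs1 (56.14) followed and overlapped, and Srebf2 (21.24) and Lss (19.55) overlapped above Idi1 (3.659). Idi1 was last in all 4 groups.

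Across the 8 libraries, Pearson's r of log2 CPM between pairs of the 7 genes other than Insig1 ran from 0.34 (Sqle with Fdft1) to 0.93 (Idi1 with Lss). Between Insig1 and the other 7 it ran from -0.43 (Fdps) to 0.21 (Fdft1). These values describe 8 libraries in 4 groups, so group differences and library scaling enter all of them. Of 10017 genes at a mean of at least 10 CPM, the 5 whose profile was most like the mean standardised profile of the 8 genes were Spry1 (r = 0.981), Pdhb (0.973), Ctu1 (0.97), Plag1 (0.967) and Acaca (0.967), each over 8 libraries. Spry1, for example, had means of 32.89, 22.21, 26.47 and 22.03 CPM in WT DMSO, WT TSA, TKO DMSO and TKO TSA, so it too was highest in solvent-treated WT cells.

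The other enzymes of the pathway were divided. Of 14 further sterol synthesis enzymes, all tested, TSA in WT cells called 6 lower and 2 higher, against 25.9% of all genes lower and 27% higher, with a median of -0.27 (4 lower and 1 higher without WT TSA replicate 2, and 3 lower and 3 higher with library totals). In TKO cells it called 6 lower and 3 higher, against 27.9% and 30.8%, with a median of -0.21 (5 lower and 4 higher with library totals). Cyp51, which demethylates the lanosterol that Lss makes, fell by 0.94 in WT cells (SE 0.123, edgeR adjusted p = 0.00013) and by 0.65 in TKO cells (SE 0.123, 0.000997). Acat2, which makes the acetoacetyl-CoA used by Hmgcs1, fell by 0.68 (SE 0.102, edgeR adjusted p = 0.00031) and by 1.01 (SE 0.103, 1.74e-05).

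Not all late enzymes fell. Dhcr7, which makes cholesterol from its last precursor, rose by log2 0.39 in WT cells (SE 0.12, edgeR adjusted p = 0.0177) and 0.89 in TKO cells (SE 0.121, 0.000113). Tm7sf2, a sterol reductase, rose by 0.63 (SE 0.162, edgeR adjusted p = 0.00753) and 0.76 (SE 0.166, 0.00245). The rise of Dhcr7 in WT cells was not called without WT TSA replicate 2 (0.34, edgeR adjusted p = 0.113) or without WT DMSO replicate 1 (0.37, 0.0612).

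Between genotypes, none of the 14 was called higher, and 4 were lower in DMSO, against 10.7% of all genes, and 6 in TSA, against 8.38%, with medians of -0.35 and -0.27. Mvd, which makes the isopentenyl diphosphate that Idi1 acts on, was lower in TKO cells by 0.84 in DMSO (log2 -0.84, SE 0.104, edgeR adjusted p = 0.000356) and by 0.98 in TSA (log2 -0.98, SE 0.105, edgeR adjusted p = 0.00021). Sc5d, a late desaturase, was lower by log2 -0.79 (SE 0.126, edgeR adjusted p = 0.00159) and -0.56 (SE 0.124, 0.0111). The difference of the TSA effects was called for none of the 14 by edgeR, against 1.35% of all genes, and for 1 by DESeq2. The count in DMSO was 2 when either TKO DMSO library was left out, and that in TSA was 1 without WT TSA replicate 1 and 2 without TKO TSA replicate 2. The value of Sc5d in TSA was -0.57 (edgeR adjusted p = 0.0605) without WT TSA replicate 1 and -0.51 (0.0609) without TKO TSA replicate 1.

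**Figure D4:**
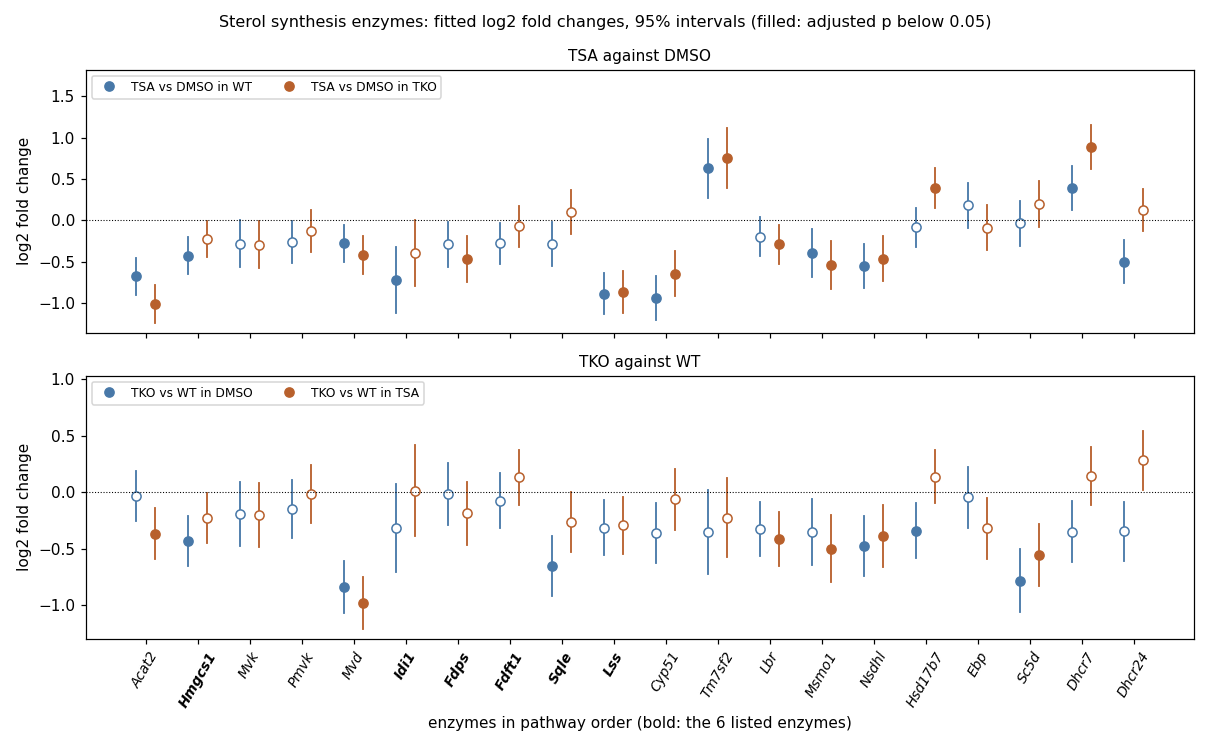
Log2 fold changes (vertical axes) of 20 sterol synthesis enzymes in pathway order, for TSA against DMSO (top) and TKO against WT (bottom), with 95% intervals and filled points where the edgeR adjusted p is below 0.05. Lss and its neighbour Cyp51 fall under TSA in both genotypes, Tm7sf2 and Dhcr7 rise, and Mvd and Sc5d are low in TKO cells in both treatments.

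Of 11 genes of sterol uptake and trafficking, all tested, TSA called 4 higher and 1 lower in WT cells, against 52.8% of all genes called in either direction, with a median of 0.04. In TKO cells it called 5 higher and 4 lower, against 58.7%, with a median of 0.15. In TKO cells it was 4 higher and 1 lower without TKO DMSO replicate 2, 4 higher and 0 lower without TKO TSA replicate 1, and 6 higher and 0 lower with library totals.

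Mylip, a ubiquitin ligase and a target of liver X receptors, rose most. It had 7.994 and 8.105 CPM in WT DMSO, 21.74 and 25.35 in WT TSA, 7.39 and 8.296 for solvent-treated TKO, and 36.27 and 40.75 for TKO TSA. Every TSA library lay above every DMSO library. The change under TSA was log2 1.55 in WT cells (SE 0.153, edgeR adjusted p = 3.42e-05) and 2.30 in TKO cells (SE 0.152, 1.97e-06), and both calls held in each of the 14 other settings.

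Scarb1, a receptor that takes up cholesterol from high-density lipoprotein, stood at 37.26 and 37.53 CPM in WT DMSO, 70.73 and 75.85 in WT TSA, 25.52 and 35.37 for solvent-treated TKO, and 73.62 and 104.5 for TKO TSA. Here too every TSA library lay above every DMSO library. It rose by log2 0.97 in WT cells (SE 0.175, edgeR adjusted p = 0.000964) and 1.55 in TKO cells (SE 0.177, 3.48e-05), and the call in TKO cells held in each of the 14 other settings. Lrpap1, a chaperone of lipoprotein receptors in the endoplasmic reticulum, fell by 0.45 in TKO cells (log2 -0.45, SE 0.124, edgeR adjusted p = 0.00858), a call lost with library totals (-0.30, 0.0606) and without TKO TSA replicate 1 (-0.33, 0.0742).

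**Figure D5:**
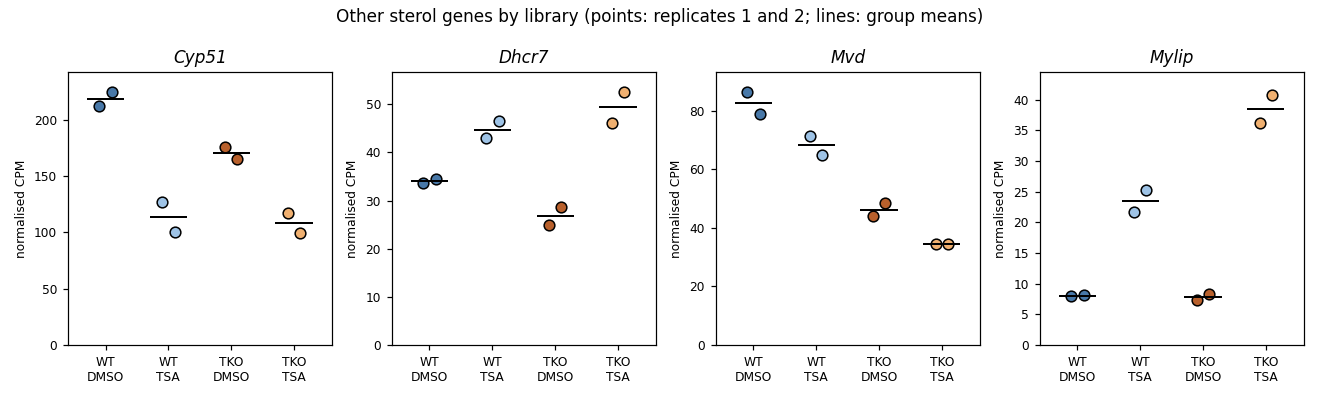
Normalised CPM (vertical axes, each from 0) of Cyp51, Dhcr7, Mvd and Mylip in each of the 2 libraries of the 4 groups, with lines at the group means. Under TSA Cyp51 drops and Dhcr7 and Mylip rise in both genotypes, and Mvd is lower in TKO than in WT cells in both treatments, at 44 and 48.39 CPM in TKO DMSO against 86.22 and 78.79 in WT DMSO.

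Among 10 further genes of SREBP processing and sterol sensing, TSA called 2 higher and 1 lower in WT cells and 1 higher and 2 lower in TKO cells, against 52.8% and 58.7% of all genes called (none higher and 1 lower in WT cells when either WT TSA library was left out, and 4 higher and 2 lower in TKO cells when either WT DMSO library was). Scap, which escorts SREBP2, had log2 0.43 in WT cells (SE 0.141, edgeR adjusted p = 0.0232) and 0.32 in TKO cells (0.0709, a value under 0.05 in 6 of the 14 other settings, among them both that left out a WT DMSO library). The call in WT cells was lost without WT DMSO replicate 2 (0.21, edgeR adjusted p = 0.171) and when either WT TSA library was left out (0.43 each, 0.0674 and 0.0753). Srebf1, the gene of the related factor SREBP1, had 0.19 in WT cells (edgeR adjusted p = 0.148, or 0.00788 at 0.39 with library totals, 0.0143 at 0.34 with upper-quartile scaling and 0.0375 at 0.31 without WT DMSO replicate 1) and rose by 0.77 in TKO cells (SE 0.103, 9.75e-05). Rnf139, a membrane ubiquitin ligase of the same compartment, fell by 0.62 (SE 0.13, edgeR adjusted p = 0.0024) and by 0.63 (SE 0.131, 0.00187). With library totals the counts over the 10 genes became 7 higher and 1 lower in WT cells and 6 higher and 1 lower in TKO cells. With upper-quartile scaling they were 7 higher and 1 lower and 5 higher and 1 lower. Over all genes upper-quartile scaling called 5365 higher and 2794 lower in WT cells and 5337 and 3787 in TKO cells. Library totals gave 5812 and 2433 and then 5908 and 3267, so both scalings moved all genes toward higher calls. Mbtps1, the first of the proteases that cleave SREBP2, was lower in TKO than in WT cells by log2 -0.46 in DMSO (SE 0.0908, edgeR adjusted p = 0.00488) and -0.52 in TSA (SE 0.0905, 0.00318), with -0.38 (0.0625) in DMSO without TKO DMSO replicate 1.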

How the data were processed

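Ribosomal RNA was depleted and strand-marked paired-end libraries were made, per the labels' protocols. The deposited values are raw counts of reads per gene made by the authors, with the exons and the merged exon length of each gene in the same table, a deposited length in bases that was used here only to give levels per kilobase. The submitters' processing notes name TopHat2 2.0.13, featureCounts 1.4.5-p1, edgeR 3.22.3 and mm10. The annotation, the strand setting and the handling of multiply mapped reads are not given in the sources used here. Counts were fitted with edgeR 4.0.16 in R 4.3.3 (TMM scaling, filterByExpr, a mean per group over all 8 libraries with 4 residual degrees of freedom, quasi-likelihood F test, two-sided, Benjamini-Hochberg). The fit was tested on simulated data with few genes changed, as many up as down. That test cannot judge the scaling where TSA moves many genes.

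With 2 libraries a group no exact test of a single gene can go below p = 0.333. The labels call the libraries biological replicates without saying what was separate, so p-values measure the spread between these libraries, and replicates correlated at r = 0.9884 to 0.9919. Chi-square per degree of freedom between replicates ran from 5.38 (TKO DMSO) to 12.4 (WT DMSO), so their scatter exceeded counting error. The 95% intervals come from the same fit, so they too rest on the spread between libraries. The members and gene lists were chosen with earlier results of these data known. Beside the 8 genes, those named come from the 2 called genes per list and comparison that moved most in each direction, Srebf1, Scap and the 5 genes of most similar profile; Ctsb, 4930483K19Rik and the marker genes fall outside this rule and were named for shared exons or as examples. Some genes of these lists are not reported here and were left out of the list counts. DESeq2 1.42.0, other scalings, no filter, a replicate block, only the groups compared and leaving out each library were tried. Each of these also changed how many of all genes were called, so a changed list count alone is not a result about that list.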

Additional observations from a re-analysis of the deposited data

Results flagged for a closer look

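The TSA effect on Insig1 differed between genotypes by 0.80 on the log2 scale (SE 0.155, edgeR adjusted p = 0.0364), higher in TKO. Among the other lipid genes listed, the same test picked out 2 genes of cholesterol efflux and storage. Abca1, the exporter of cholesterol to lipoproteins, had a difference of effects of 1.15 (SE 0.187, edgeR adjusted p = 0.0259): its levels were 65.45 and 52.69 CPM in WT DMSO, 38.54 and 35.95 in WT TSA, 27.1 and 23.36 for solvent-treated TKO, and 34.37 and 36.04 for TKO TSA. TSA lowered it in WT cells and raised it in TKO cells. Soat1, which esterifies cholesterol for storage, had a difference of 0.68 (SE 0.141, edgeR adjusted p = 0.045), with 141.3 and 127.7, 202 and 173.9, 64.52 and 65.2, and 144 and 145.8 CPM in the same order. TSA raised it in both genotypes, and solvent-treated TKO cells held the lowest levels. The adjusted p of Abca1 was above 0.05 without WT TSA replicate 1 (0.053), TKO DMSO replicate 1 (0.0525), TKO DMSO replicate 2 (0.14) or TKO TSA replicate 2 (0.0691). That of Soat1 was above 0.05 without any one of 7 libraries, from 0.0668 to 0.19, and with library totals (0.06) or upper-quartile scaling (0.0648). Of all genes tested, 1.35% were called in this comparison.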

How the results depend on the processing

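Of 19 calls made among the 8 genes, 10 held in every setting run: Lss under TSA in both genotypes, Insig1 in TKO TSA against TKO DMSO and against WT TSA, Sqle between genotypes in DMSO, and Hmgcs1, Idi1, Sqle, Srebf2 and Lss in TKO TSA against WT DMSO. The comparisons share libraries, so these calls are not independent results. The number of the 8 called under TSA in WT cells was 2 with library totals. It was 2 between genotypes in TSA with the replicate block (Insig1 higher and Sqle lower), and 0 for the difference of TSA effects with upper-quartile scaling. Leaving out each library in turn gave 1 to 7 called for TSA in WT, 2 to 4 for TSA in TKO, 1 to 2 between genotypes in DMSO, 1 to 2 in TSA, 5 to 7 for TKO TSA against WT DMSO and 0 to 1 for the difference of effects. Of the 14 other enzymes the same gave 5 to 9, 7 to 9, 2 to 5, 1 to 6, 9 to 11 and 0 to 1. With the replicate block 8 of the 14 other enzymes were called between genotypes in DMSO, against 4217 of all 15822 genes. For the difference of effects the block called 1 of the 14, as did DESeq2. What the replicate numbers share is not given in the sources used here, and with 2 pairs per comparison no pairing was assumed; same-numbered libraries of different groups had deviations correlated at 0.0673 to 0.325. Beside Sqle above, the block added calls among the 8 genes and lost none. Under TSA in WT it added Sqle (edgeR adjusted p = 0.0138) and Fdft1 (0.0286), making 6, against 9256 of all genes (8358 without the block). Under TSA in TKO it added Hmgcs1 (edgeR adjusted p = 0.0456), making 5, against 10039 (9284 without). Between genotypes in DMSO it added Lss (edgeR adjusted p = 0.048), making 3, against 4217 (3221 without). The block moved the count of all genes called for the difference of effects from 213 to 633; DESeq2 gave 387, no filter 488 and leaving out libraries 10 to 410. Leaving out libraries gave 1458 to 3330 of all genes between genotypes in DMSO and 941 to 3443 in TSA.

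Signs turned only for values that were not called. With library totals these were Fdft1 for TSA in TKO (0.0727) and in TKO TSA against WT DMSO (0.0184), Fdps between genotypes in DMSO (0.00462), Idi1 between genotypes in TSA (-0.0211) and Lss for the difference of effects (-0.0351). With upper-quartile scaling they were Fdft1 for TSA in TKO (0.000392), Fdps (0.0132), Idi1 (-0.0297) and Lss (-0.0525). Lss also turned with no filter (-0.00663) and Idi1 with only the groups compared (-0.000769). Leaving out each library gave ranges that cross 0 for Sqle under TSA in TKO (-0.0803 to 0.254), between genotypes in DMSO for Fdps (-0.11 to 0.0708) and Insig1 (-0.317 to 0.0013), in TSA for Idi1 (-0.122 to 0.162) and Fdft1 (-0.0153 to 0.293), and for the difference of effects for Lss (-0.119 to 0.175), Srebf2 (-0.0298 to 0.288) and Scap (-0.364 to 0.0969). The cause of these changes was not tested.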

Other observations

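In the fatty acid branch, whose enzymes are known targets of SREBP1, Fasn fell and Acss2 rose under TSA in both genotypes. Fasn, fatty acid synthase, stood at 858.7 and 841.7 CPM in WT DMSO, 385.6 and 341 in WT TSA, 619.3 and 662.9 for solvent-treated TKO, and 295.3 and 309.8 for TKO TSA. It fell by 1.23 on the log2 scale in WT cells (SE 0.0919, edgeR adjusted p = 9.96e-06) and by 1.08 in TKO cells (SE 0.0918, 6.08e-06). Acss2, which makes acetyl-CoA from acetate, rose by 1.55 (SE 0.161, edgeR adjusted p = 4.15e-05) and 1.31 (SE 0.157, 4.78e-05). Of the 12 genes of this list, 6 were called lower and 1 higher in WT cells, against 52.8% of all genes called, and 2 lower and 3 higher in TKO cells, against 58.7%, where without TKO DMSO replicate 1 or TKO TSA replicate 2 it was 1 lower and 1 higher.

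The isoprenoid branch that leaves the pathway at farnesyl diphosphate, the product of Fdps, had 4 of 10 genes called lower and 1 higher under TSA in each genotype, against 52.8% of all genes called in WT cells and 58.7% in TKO cells. In WT cells it was 0 lower and 1 higher with library totals or upper-quartile scaling. These scalings called 2433 and 2794 of all genes lower there, against 4092 in the main fit. It was 3 lower and 0 higher with no filter on low counts or with only the groups compared. In WT cells only 1 was called, as lower, when either WT TSA library was left out, and 3 when WT DMSO replicate 1 or either TKO DMSO library was, and in TKO cells 3 without TKO TSA replicate 2. Pggt1b, a subunit of a protein prenyltransferase, fell by 0.45 in WT cells (SE 0.132, edgeR adjusted p = 0.0146) and by 0.64 in TKO cells (SE 0.132, 0.00166), and Fntb, a farnesyltransferase subunit, fell by 0.37 (SE 0.101, edgeR adjusted p = 0.0097) and 0.58 (log2 -0.58, SE 0.0992, 0.000506). In WT cells both calls were lost with library totals (-0.24 and -0.17, edgeR adjusted p = 0.13 and 0.191), with upper-quartile scaling (0.0706 and 0.0825) and without WT TSA replicate 2 (0.0535 and 0.0781), and that of Pggt1b also without WT DMSO replicate 1 (0.0614) and WT TSA replicate 1 (0.0623). Icmt, which methylates prenylated proteins, rose by 0.27 (SE 0.0911, edgeR adjusted p = 0.0283) and 0.80 (SE 0.0913, 3.62e-05). Its call in WT cells was lost in 7 of the 14 other settings: with no filter (edgeR adjusted p = 0.0507), with only the groups compared (0.0568), and without WT DMSO replicate 2 (0.132), WT TSA replicate 1 (0.205) or 2 (0.0528) or TKO DMSO replicate 1 (0.0526) or 2 (0.0524). Of 8 liver X receptor and efflux genes tested, 3 were called higher and 1 lower in WT cells, against 52.8% of all genes called, and 4 higher and 1 lower in TKO cells, against 58.7%. In WT cells it was 1 higher and 1 lower by DESeq2 and without WT DMSO replicate 1 or WT TSA replicate 2. Cyp27a1, which makes an oxysterol ligand of that receptor, rose by 0.85 (SE 0.263, edgeR adjusted p = 0.0186) and 1.38 (SE 0.266, 0.00109), and in WT cells it had 0.67 (edgeR adjusted p = 0.115) without WT DMSO replicate 1 and 0.73 (0.107) without WT TSA replicate 2, and by DESeq2 0.87 (adjusted p = 0.0528).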
